A study of Homo sapiens with 9 samples.

Results

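The genes described here are 6 neighbours on the short arm of chromosome 3: CTDSPL, the microRNA gene MIR26A1 that lies inside it, VILL, PLCD1, DLEC1 and ACAA1. They are 6 of the 17958 genes measured, and each was named by 1 row of the 33297 probe sets on the array (CTDSPL 8078650, MIR26A1 8078663, VILL 8078665, PLCD1 8086185, DLEC1 8078690, ACAA1 8086201). VILL and MIR26A1 were chosen because both read higher on all 6 klotho arrays than on any control array, so their differences from control are a description and carry no test. CTDSPL, PLCD1, DLEC1 and ACAA1 were chosen for their place beside them and were tested. The question was whether the host gene and the neighbours moved with VILL and MIR26A1.

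The cells were HCT 116, an established line from a human colorectal carcinoma, and their RNA was taken 24 hours after a plasmid was introduced. The KL-FL group received mouse full-length klotho, the KL1 group received the KL1 subdomain of mouse klotho, and the control group received the empty vector pcDNA3, with 3 arrays in each group. Klotho is a membrane protein that helps FGF receptors bind the hormone FGF23. JetPEI or polyethylenimine carried the plasmids, without a record of the reagent for each sample. Whether replicates were separate cultures is not stated, so p-values cover only the scatter among these arrays and part of it may be technical.

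A microRNA is cut from a hairpin in a longer primary transcript, and the mature strand pairs through its seed, bases 2 to 8, with target messenger RNAs and lowers their output. MIR26A1 lies in an intron of CTDSPL, and its relatives MIR26A2 and MIR26B lie in introns of CTDSP2 and CTDSP1, so each miR-26 gene shares a primary transcript with a small phosphatase that acts on the tail of RNA polymerase II. CTDSPL also dephosphorylates the retinoblastoma protein, and CTDSPL, PLCD1 and DLEC1 have been studied as candidate tumour suppressors in a region often lost or silenced in carcinomas. VILL encodes a villin-like protein of the actin-binding villin and gelsolin family.

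The hairpins and mature strands are printed to show how alike the products of MIR26A1 and its relatives are. In the mature strands the seed is in capitals. The 5p strand from MIR26A1 and the 5p strand from MIR26A2 were identical over 22 bases, and that of MIR26B differed from them by the substitutions C11U and C21U, counted from the 5′ end of miR-26a-5p, and was 21 bases long. Of 2545 mature entries in the RefSeq table (GRCh38.p14), 5 carried this seed, under the names miR-26a-5p (from both loci), miR-26b-5p, miR-1297 and miR-4465.
miR-26a-5p: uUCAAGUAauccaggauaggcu
miR-26b-5p: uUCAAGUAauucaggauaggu
In the hairpins both mature arms are in capitals. MIR26A1 is at chr3:37969404-37969480 on the plus strand, MIR26A2 at chr12:57824609-57824692 on the minus strand and MIR26B at chr2:218402646-218402722 on the plus strand (GRCh38.p14).
MIR26A1 hairpin: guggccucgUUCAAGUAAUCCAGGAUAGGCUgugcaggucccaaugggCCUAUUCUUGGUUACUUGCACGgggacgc
MIR26A2 hairpin: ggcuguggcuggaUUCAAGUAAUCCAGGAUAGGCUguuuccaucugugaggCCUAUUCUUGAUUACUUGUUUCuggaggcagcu
MIR26B hairpin: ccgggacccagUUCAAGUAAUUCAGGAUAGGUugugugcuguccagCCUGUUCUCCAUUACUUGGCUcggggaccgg

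The table held log2 expression values from 1.79 to 12.4, with array medians over genes from 5.38 to 5.42, and no detection call. KL-FL replicate 3 stood apart, since the median of its correlations with the 8 remaining arrays was 0.994, followed by KL1 replicate 2 at 0.996. The epithelial markers EPCAM and KRT8 read 9.77 and 10.7 in control, but LGR5, the lowest of 10 epithelial markers, read 2.99. Of 5 leukocyte markers measured, PTPRC read lowest in control at 2.74 and CD68 highest at 6.20. The epithelial and leukocyte lists thus overlapped in level. The probe set of human KL averaged 3.05 (SD 0.014) on control arrays, 3.19 (SD 0.046) on KL-FL arrays and 3.19 (SD 0.067) on KL1 arrays, n = 3 each, near the bottom of the scale. All 3 arrays with each vector lay above every control, a pattern that 2.20% of all genes showed. Its differences of 0.14 and 0.15 did not pass in limma (unadjusted p = 0.0072 and 0.00574, adjusted p = 0.637 and 0.927). The vectors carry mouse sequence, and whether this probe set reads it was not tested, so this row is no check of the transfection. Many genes repeated 1 value exactly on several arrays: 68.5% of genes did so on at least 2 arrays. A group SD of 0 therefore reflects repeated values in the deposited table and not a measured absence of spread.

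MIR26A1 read 3.10, 3.13 and 3.11 on control replicates 1 to 3. With KL-FL it read 3.46, 3.53 and 3.32, and with KL1 it read 3.34, 3.44 and 3.43. Every klotho array stood above every control, and the lowest of them, KL-FL replicate 3, lay 0.19 above the highest control on the log2 scale. The mean of 3 arrays was 3.11 (SD 0.014) for control, 3.44 (SD 0.11) for KL-FL and 3.40 (SD 0.055) for KL1, log2 differences from control of 0.32 and 0.29, or 1.25-fold and 1.22-fold. Without KL-FL replicate 3 the KL-FL difference was 0.38, and without KL1 replicate 2 the KL1 difference was 0.27. These are readings of the hairpin's probe set near the low end of the scale. The labelling kit covers whole transcripts, and neither the mature strand nor the uncut host intron was measured on its own.

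VILL read 4.42, 4.46 and 4.39 on control replicates 1 to 3. With KL-FL it read 4.58, 4.61 and 4.61, and with KL1 it read 4.60, 4.63 and 4.58. The 6 klotho arrays lay within a narrow band above the controls, with the lowest 0.12 above the highest control. The mean of 3 arrays was 4.42 (SD 0.031) for control, 4.60 (SD 0.020) for KL-FL and 4.60 (SD 0.023) for KL1, log2 differences of 0.18 with each vector, or 1.13-fold and 1.14-fold. Without KL-FL replicate 3 the KL-FL difference was 0.17, and without KL1 replicate 2 the KL1 difference was 0.17. Of all genes, 2.20% read higher on all 6 klotho arrays than on every control, and nothing is read from VILL and MIR26A1 being among them, since they were chosen for it. All 6 klotho arrays lay below every control for 1.36% of genes and for 0 of the 6 members.

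On the measure that chose them, DLEC1 came next, its lowest klotho array 0.014 below the highest control. Only 1 of its 6 klotho arrays lay above every control, and 6 of its 9 arrays held 1 repeated value, so the small margin is that of a flat profile. CTDSPL was 0.13, PLCD1 0.25 and ACAA1 0.32 below it on the same measure.

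**Figure D1:**
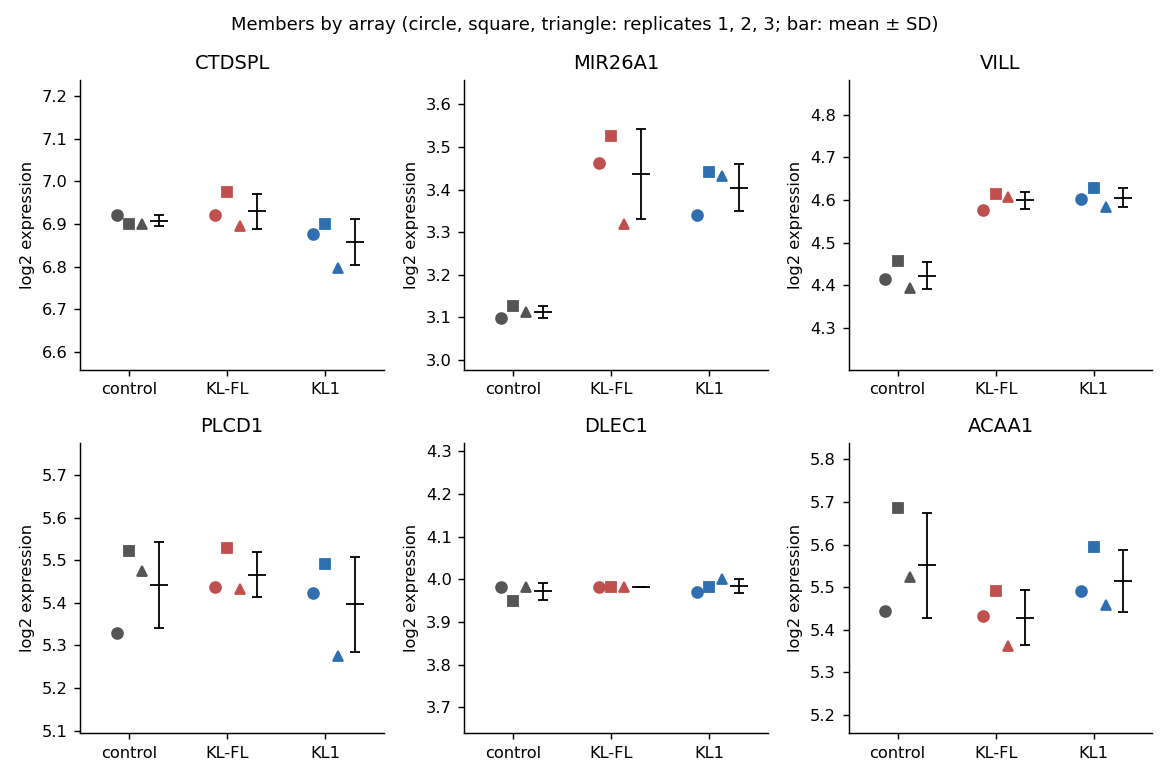
Log2 expression (y axis) of the 6 genes on each of the 9 arrays, by vector (x axis); each y axis spans the same log2 range, circles, squares and triangles are replicates 1, 2 and 3, and bars give the mean and SD of 3 arrays. MIR26A1 and VILL lie above control on all 6 klotho arrays, while the klotho arrays of CTDSPL, PLCD1, DLEC1 and ACAA1 overlap the controls.

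CTDSPL, the host gene, overlapped its control values with both vectors. It read 6.92, 6.90 and 6.90 on the control arrays, 6.92, 6.97 and 6.89 with KL-FL, and 6.88, 6.90 and 6.80 with KL1. Only 1 of the 6 klotho arrays, KL-FL replicate 2, lay above every control, and 3 lay below every control. The difference from control was 0.023 (SE 0.037, 95% interval -0.060 to 0.11) with KL-FL and -0.050 (SE 0.037, 95% interval -0.13 to 0.033) with KL1, in limma at adjusted p = 0.885 and 0.927. The upper ends of those intervals correspond to rises of 1.08-fold and 1.02-fold. Leaving out KL-FL replicate 2 gave a KL-FL difference of 0.00052, and leaving out KL-FL replicate 3 gave 0.041. The KL1 difference was -0.019 without KL1 replicate 3 and -0.071 without KL1 replicate 2. Control replicates 2 and 3 and KL1 replicate 2 shared 1 repeated value.

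Within each array, the distance between the MIR26A1 and CTDSPL log2 values was smaller with klotho. MIR26A1 minus CTDSPL was -3.82, -3.77 and -3.79 on the control arrays, -3.46, -3.45 and -3.58 with KL-FL, and -3.54, -3.46 and -3.36 with KL1. The mean gap moved by 0.30 with KL-FL and by 0.34 with KL1, and the gaps of the 6 klotho arrays did not overlap those of the controls. This is a description, because MIR26A1 was chosen for its higher readings, and the choice fixes much of this shift.

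PLCD1, a phospholipase C that cleaves the membrane lipid PIP2, is the next gene past VILL. It read 5.33, 5.52 and 5.47 in control, 5.44, 5.53 and 5.43 with KL-FL, and 5.42, 5.49 and 5.27 with KL1. The groups overlapped, with differences of 0.024 (SE 0.067, limma adjusted p = 0.938) and -0.045 (SE 0.067, limma adjusted p = 0.956). The sign of its KL-FL difference turned without control replicate 1, at -0.032, and without KL-FL replicate 2, at -0.0065, and that of its KL1 difference without KL1 replicate 3, at 0.016.

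DLEC1, named for its deletion in lung and oesophageal cancer, read 3.98 on control replicates 1 and 3 and 3.95 on replicate 2. It read 3.98 on all 3 KL-FL arrays and 3.97 and 3.98 on KL1 replicates 1 and 2, with KL1 replicate 3 the highest of the 9. A single deposited value stood on 6 of the 9 arrays. Its differences were 0.012 (SE 0.027, limma adjusted p = 0.924) and 0.013 (SE 0.027, limma adjusted p = 0.968), and both turned below 0 under quantile normalization, at -0.014 and -0.011.

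ACAA1 encodes the peroxisomal thiolase that performs the last step of fatty acid beta-oxidation in that organelle. It read 5.44, 5.68 and 5.52 in control, 5.43, 5.49 and 5.36 with KL-FL, and 5.49, 5.60 and 5.46 with KL1. It was the only member with a KL-FL difference below 0, at -0.12 (SE 0.066, 95% interval -0.27 to 0.026, limma adjusted p = 0.709), and 2 of 3 KL-FL arrays lay below every control. With KL1 the difference was -0.037 (SE 0.066, limma adjusted p = 0.961), and 0 of 3 arrays lay below every control. Without control replicate 2, its highest array, the differences were -0.056 and 0.030.

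Of the 4 neighbours tested, 0 passed in either comparison with control, in limma at 0.05 after Benjamini-Hochberg adjustment across the 17958 genes. Over all genes 0.00557% passed in each comparison, 1 gene each time, DDIT3, a call lost in both once replicate number was a block (0 genes passed). In both comparisons 0 genes passed also with every probe set tested and with each gene's own variance. The same held without control replicate 1, 2 or 3, and without KL1 replicate 1 or 3. Under quantile normalization and under median centring 1 gene passed in each comparison. At an unadjusted p under 0.05 the share without the block was 7.16% with KL-FL and 5.10% with KL1. At that unadjusted level 0 of the 4 neighbours passed in either comparison. Their median log2 difference was 0.017 with KL-FL and -0.041 with KL1, where the median over all genes was 0.0099 and 0.0026. Under quantile normalization the KL-FL median of the 4 was 0.0014, with 2 of 4 above 0 in place of 3. The 2 comparisons share the control arrays, so their values are set side by side and are not independent.

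**Figure D2:**
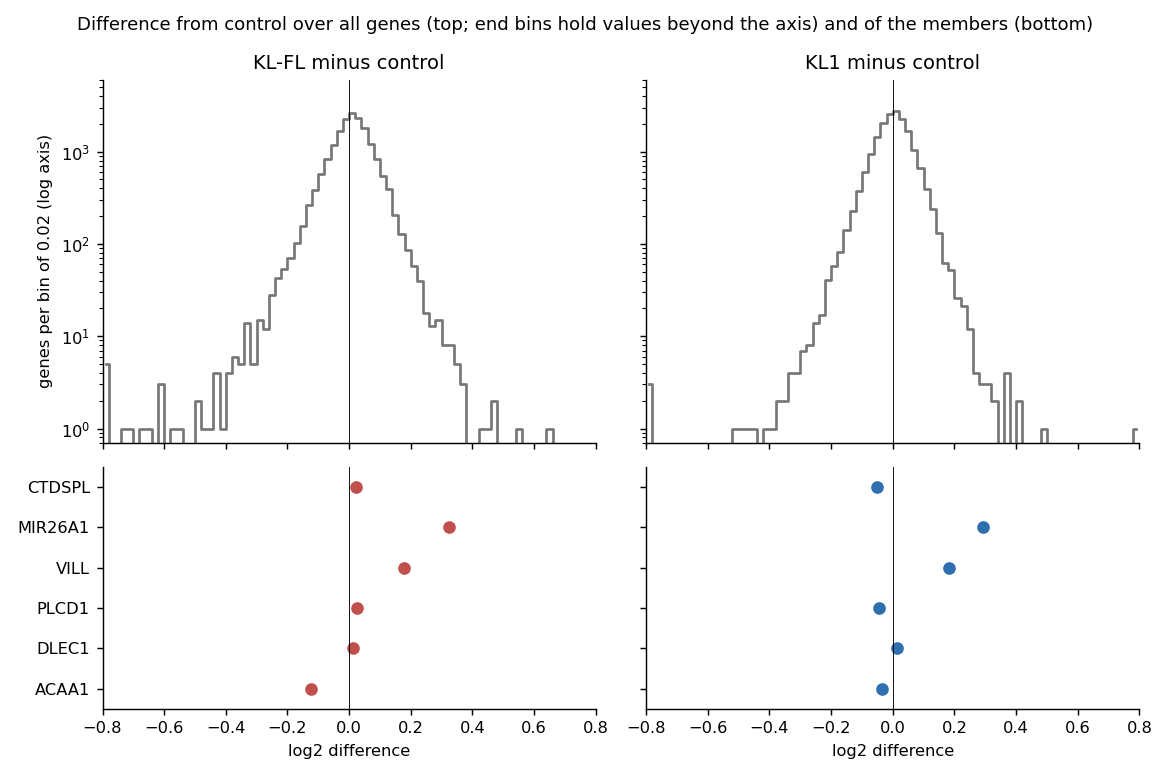
Top, the number of genes (log axis) at each log2 difference from control over all 17958 genes, for KL-FL (left) and KL1 (right); bottom, the difference of each of the 6 members on the same x axis. MIR26A1 and VILL lie in the right flank at 0.32 and 0.18 with KL-FL and at 0.29 and 0.18 with KL1, and the 4 neighbours lie between -0.12 and 0.024.

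Full-length klotho and the KL1 subdomain were compared directly for all 6 members, a contrast that the choice of VILL and MIR26A1 did not use. VILL differed by -0.0056 (SE 0.030, 95% interval -0.073 to 0.062, limma adjusted p = 0.979) and MIR26A1 by 0.032 (SE 0.053, 95% interval -0.088 to 0.15, limma adjusted p = 0.928). For both, the arrays of the 2 vectors overlapped. CTDSPL differed by 0.073 (SE 0.037, 95% interval -0.010 to 0.16, limma adjusted p = 0.855), with 2 of 3 KL-FL arrays above every KL1 array. PLCD1 differed by 0.069, ACAA1 by -0.086 and DLEC1 by -0.0012, with adjusted p of 0.874, 0.855 and 0.997 in limma. The PLCD1 difference was 0.0083 without KL1 replicate 3 and 0.12 without KL1 replicate 2. For ACAA1, leaving out KL-FL replicate 3 gave -0.053, and leaving out KL1 replicate 2 gave -0.046. In this contrast limma called 0 of 17958 genes (0%), with 906 genes at an unadjusted p under 0.05, or 5.05%, among which were 0 of the 6 members. All 3 KL-FL arrays lay above all 3 KL1 arrays for 4.67% of genes and below them for 2.21%, 6.88% in either direction, and for 0 of the 6 members. With array weights and with each gene's own variance 1 gene was called, and it was none of the 6.

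The other miR-26 genes gave no reading like that of MIR26A1. In control MIR26A2 and MIR26B averaged 2.54 and 2.87, beside 3.11 for MIR26A1. Both thus read even nearer the low end of the scale, and no detection call shows whether they were detected. MIR26A2 (probe set 7964592) read 2.54, 2.54 and 2.55 in control, 2.54, 2.48 and 2.54 with KL-FL and 2.52, 2.54 and 2.54 with KL1, differences of -0.021 (SE 0.028) and -0.010 (SE 0.028). A single value stood on 6 of its 9 arrays. MIR26B (probe set 8048317) read 2.88, 2.86 and 2.89 in control, 2.88, 2.88 and 2.98 with KL-FL and 2.87, 2.87 and 2.84 with KL1, differences of 0.038 (SE 0.036) and -0.015 (SE 0.036). Its 1 array above all controls was KL-FL replicate 3, without which the difference was 0.00089. Their hosts CTDSP2 and CTDSP1 differed by -0.0038 and -0.034 with KL-FL and by -0.0082 and -0.018 with KL1, and the relative CTDSPL2 by 0.000083 and -0.050. Of these 5 genes 0 passed in limma, with adjusted p from 0.788 to 1.00 for KL-FL and from 0.929 to 0.983 for KL1. Whether the change of MIR26A1 differs from that of MIR26A2 or MIR26B was not tested, because MIR26A1 was chosen for its values.

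**Figure D3:**
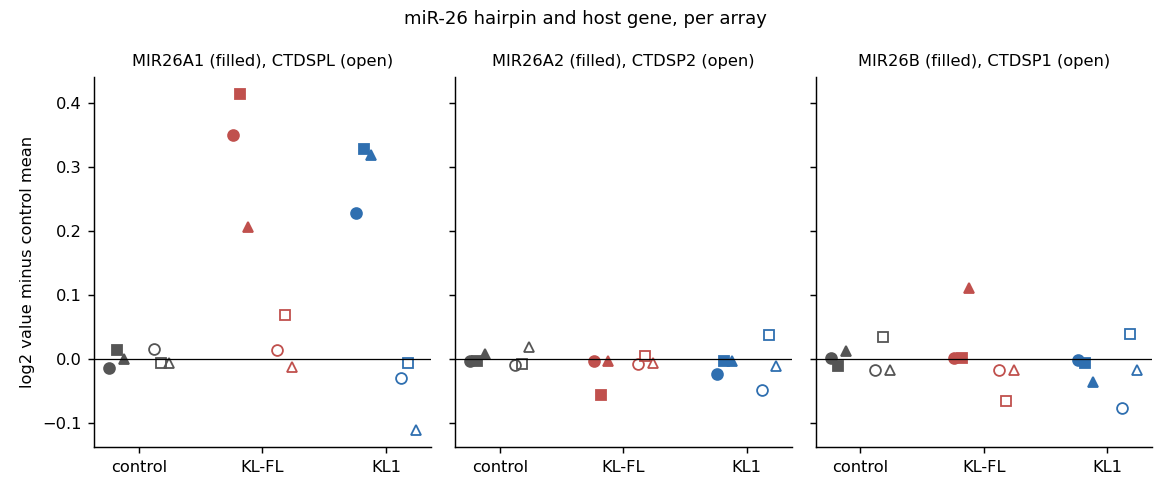
Log2 value minus the control mean (y axis) on each array, by vector (x axis), for the 3 miR-26 hairpins (filled) and their host genes (open); circles, squares and triangles are replicates 1, 2 and 3. MIR26A1 stands 0.21 to 0.41 above the control mean on the 6 klotho arrays, and CTDSPL lies between -0.11 and 0.068.

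Genes farther along the chromosome were mixed. Of 11 neighbours measured on either side of the 6, from LRRFIP2 to EXOG, 9 lay above 0 with KL-FL (8 under quantile normalization) and 7 with KL1, with medians of 0.038 and 0.037, beside 57.2% and 52.0% of all genes above 0. None of the 11 passed in either comparison in limma, and at an unadjusted p under 0.05 there were 2 with KL-FL, GOLGA4 and EXOG, and 0 with KL1.

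EXOG, a mitochondrial nuclease at the far end of the stretch, had the widest KL-FL difference of the 17 genes. It read 5.29, 4.88 and 4.93 in control, 5.41, 5.46 and 5.65 with KL-FL, and 5.51, 5.00 and 5.30 with KL1. The KL-FL arrays all lay above the controls and the KL1 arrays overlapped them, with differences of 0.47 (SE 0.14, limma adjusted p = 0.667) and 0.23 (SE 0.14, limma adjusted p = 0.927). The KL1 difference was 0.12 without KL1 replicate 1, 0.37 without KL1 replicate 2 and 0.36 without control replicate 1. The direct difference between the vectors was 0.24 (SE 0.14) and did not pass in limma (adjusted p = 0.855).

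GOLGA4, a golgin that tethers vesicles at the trans-Golgi, read 7.44, 7.51 and 7.59 in control, 7.74, 7.64 and 7.91 with KL-FL, and 7.70, 7.64 and 7.54 with KL1. Its difference was 0.25 (SE 0.073, limma adjusted p = 0.662) with KL-FL and 0.11 (SE 0.073, limma adjusted p = 0.927) with KL1. Without KL-FL replicate 3 the KL-FL difference was 0.17. With array weights the KL-FL difference passed, at 0.21 and adjusted p = 0.0471, in a fit that called 523 genes, while its range over all alternatives was adjusted p = 0.0471 to 0.887. APRG1, between GOLGA4 and ITGA9, read 5.55, 5.51 and 5.53 in control and 5.73, 5.56 and 6.22 with KL-FL. Its difference of 0.31 (SE 0.15, limma adjusted p = 0.702) was 0.12 without KL-FL replicate 3, and with KL1 it was -0.079.

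In KL-FL, 7.13% of all genes had all 3 arrays above all 3 controls. Among the 11 farther neighbours these were GOLGA4, APRG1 and EXOG, and among the 4 tested neighbours there were 0. With KL1 the share over all genes was 5.13%, with 0 of the 11 and 0 of the 4. All 3 arrays lay below all controls for 3.25% of genes with KL-FL and 4.34% with KL1, and for 0 of the 4 neighbours. In either direction the groups did not overlap for 10.4% and 9.47% of genes.

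**Figure D4:**
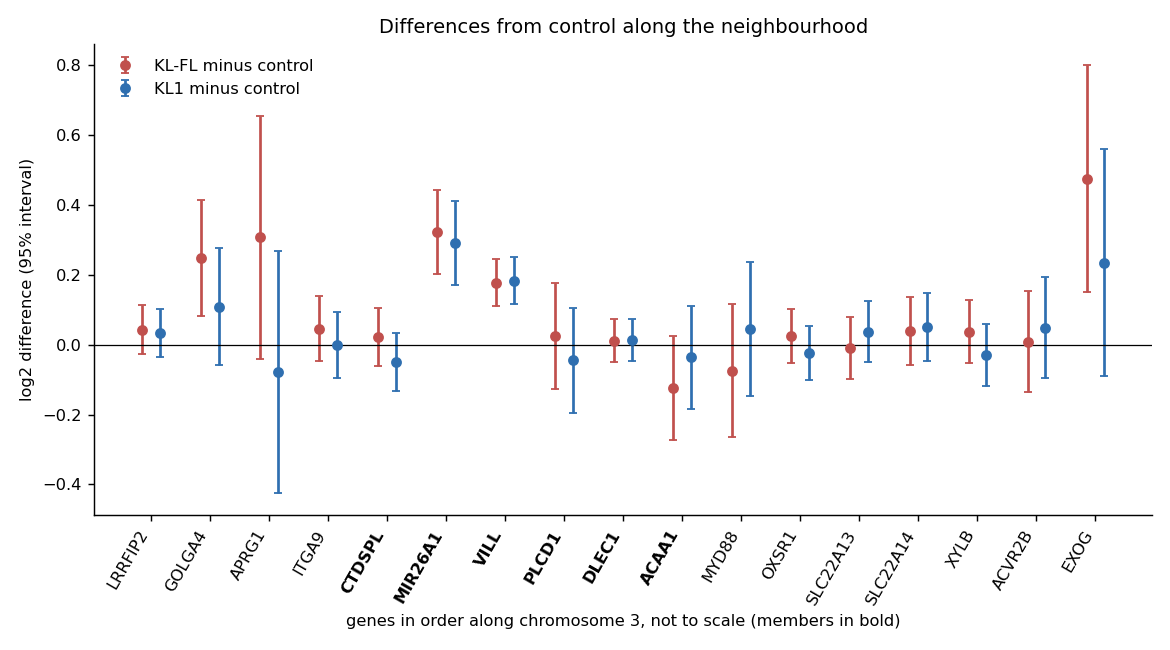
Log2 difference from control (y axis, points with 95% intervals from limma) for 17 genes in their order along chromosome 3 (x axis, not to scale), for KL-FL and KL1; the 6 members are in bold. VILL and MIR26A1 stand at 0.18 and 0.32 with KL-FL between CTDSPL at 0.023 and PLCD1 at 0.024, and the intervals of MIR26A1 and VILL are drawn as a description because they were chosen on these values.

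Relatives of the members by family were listed too. Of 7 measured genes of the villin and gelsolin family other than VILL, 0 passed in either comparison. CAPG, which caps actin filaments, differed by -0.19 (SE 0.068, limma unadjusted p = 0.0208, adjusted p = 0.688) with KL-FL and -0.069 with KL1. All 3 CAPG arrays with each vector lay below every control, a pattern that 1.36% of all genes showed. Gelsolin (GSN) differed by -0.14 and -0.049, and FLII by -0.12 and -0.0018, and both overlapped the controls. With KL1 the widest difference was that of SVIL, at -0.095 (SE 0.069, limma adjusted p = 0.927). All 3 of its KL1 arrays lay below every control, as for 4.34% of all genes. With KL-FL SVIL overlapped the controls, at 0.0033. The median of the 7 was -0.039 with KL-FL and -0.032 with KL1. The KL-FL median was -0.00011 without control replicate 1, -0.068 without control replicate 3 and -0.060 without KL-FL replicate 3, and the KL1 median was -0.063 without KL1 replicate 2. The phospholipases PLCD3 and PLCD4 differed by -0.055 and 0.024 with KL-FL and by -0.038 and 0.083 with KL1.

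Genes reported elsewhere as targets of miR-26a were listed from general knowledge, and 19 of 20 were measured. With KL-FL 13 lay above 0 (12 under quantile normalization or median centring) and 6 below, with a median of 0.020, and with KL1 7 lay above 0 and 12 below, with a median of -0.022. None passed in limma after adjustment. At an unadjusted p under 0.05 in limma there were 2 higher and 1 lower with KL-FL, where the share of all genes was 7.16%. With KL1 there were 0, where that share was 5.10%. With KL-FL the widest differences were those of cyclin D2 (CCND2) at 0.19 (SE 0.072) with KL-FL and 0.15 (SE 0.072) with KL1, cyclin E1 (CCNE1) at -0.12 and -0.058, and the deubiquitinase USP15 at 0.10 and 0.075. CCND2 read low on the scale, at 3.47 (SD 0.14) in control. With KL1, cyclin E2 (CCNE2) was wider than USP15, at -0.083, and with KL-FL it was at -0.086 (limma adjusted p = 0.927 and 0.695). CCNE2 lay below all controls on all 3 arrays with each vector, and USP15 lay above all controls on all 3 arrays with each vector. Over all genes, all 6 klotho arrays lay below every control for 1.36% and above every control for 2.20%. EZH2, a histone methyltransferase often named as a miR-26a target, differed by 0.067 with each vector. Without KL1 replicate 3 the KL1 median turned to 0.0090.

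Of 7 other measured genes of peroxisomal beta-oxidation, 0 passed in limma, with medians of -0.0035 with KL-FL and 0.016 with KL1. PEX5, the import receptor, differed by -0.063 and -0.049, ABCD3, a peroxisomal transporter, by 0.056 and 0.024, and the oxidase ACOX2 by -0.049 and 0.0029. The KL-FL median was 0.017 without KL-FL replicate 3, 0.011 without control replicate 2 and -0.017 without KL-FL replicate 2, and the KL1 median was 0.0021 without KL1 replicate 2 and -0.0050 without control replicate 1. Of 4 measured targets and partners of the CTD phosphatases, 0 passed. E2F1 differed by -0.055 and -0.12, REST by -0.061 and -0.039, and RBL1 by 0.019 and -0.059.

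Likeness was measured as the root-mean-square difference between profiles over the 9 arrays, each centred on its own mean. The gene closest to VILL among 17957 others was HSP90B1, an abundant chaperone of the endoplasmic reticulum, at 0.024, with log2 differences from control of 0.21 and 0.21. C1orf162 at 0.033 and FBXO16 at 0.034 came next. Those closest to MIR26A1 were FITM1 at 0.068, PJA2 at 0.075 and SPRR2F at 0.077. VILL was 13th for MIR26A1 at 0.085, a rank that follows from choosing both for the same pattern. In the other direction MIR26A1 was only 4054th for VILL at 0.0852, where a profile with no variation would be at 0.0874. DLEC1 was nearer to VILL, 3878th at 0.0847. CTDSPL was closest to NDEL1, RPS27L and SLC27A6, at 0.0090 to 0.013. CTDSPL itself was 9107th for MIR26A1 at 0.16, where a profile with no variation would be at 0.16. These are descriptions over 9 arrays, and a gene with little variation lies close to many others.

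VILL is the member of the pair with its own promoter in the RefSeq table, and the 250 bases before its first annotated start are printed because the arrays give that gene a higher reading with both vectors. The window is chr3:37987728-37987977 on the plus strand (GRCh38.p14).
VILL promoter: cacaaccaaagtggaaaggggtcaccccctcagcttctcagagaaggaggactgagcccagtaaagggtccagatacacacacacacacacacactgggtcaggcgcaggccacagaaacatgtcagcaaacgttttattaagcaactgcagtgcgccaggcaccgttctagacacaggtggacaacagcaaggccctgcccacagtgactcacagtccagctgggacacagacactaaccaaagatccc
Parts of elements known from genes of the unfolded protein response were searched on both strands: CCAAT and CCACG, the ends of the ER stress element, TGACGTGG, bound by XBP1 and ATF6, and TGATGNAA, bound by ATF4 with C/EBP factors. A match to TGACGTGG also holds CCACG on the opposite strand. None of the 4 was in the window, so it holds no capitals. They were in 32.0%, 33.5%, 0.612% and 3.14% of all 35116 windows of the same length, in the order given. Of the other 2 annotated VILL starts, 1 had a CCACG beginning 169 bases before it. No match says only that these letters are not in this window.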

How the data were processed

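Whole-transcript labelling started from 100 ng of total RNA, per the labels' protocols. The values are log2 intensities that the authors deposited in 1 table for the 9 arrays, made with Partek 6.6 per the submitters' processing notes. How background was corrected and arrays normalized is not given in the sources used here. The base 2 of the logarithm is inferred from the values' range. No further scaling was applied. Probe sets were named through the platform's annotation: 19181 named 1 gene, 2055 several and 12061 were unnamed here, and 0 symbols changed against RefSeq (38 had no match). The probe set with the highest mean stood for a gene, which gave 17958 genes. The platform annotation names no build, so the RefSeq gene table (GRCh38.p14) gave gene order only, and coordinates are those of the RefSeq sequence tables. Promoter sequences were found there for VILL and DLEC1.

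limma 3.58.1 in R 4.3.3 was fitted to 3 groups with no covariate and 6 residual degrees of freedom, and was tested on simulated data. Adjusted p-values are two-sided, Benjamini-Hochberg over all genes, with a threshold of 0.05. Deviations from the group means correlated between same-numbered arrays of control and KL1, at of 0.113, 0.322 and 0.186, and these were taken as possibly paired. The pairs with KL-FL had at most 0.097. The alternatives were a replicate block, quantile normalization, median centring, no dim genes, array weights, every probe set, only the 6 arrays compared, each gene's own variance and each array left out.

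The members, lists and rule for named genes were chosen with earlier results of these data known. Named were all members and the measured farther neighbours and miR-26 relatives, the 3 widest differences of each family or target list, the 3 closest profiles for VILL, MIR26A1 and CTDSPL, and DDIT3. KL, EZH2, CCNE2, SVIL and the markers EPCAM, KRT8, LGR5, PTPRC and CD68 were named outside it.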

Additional observations from a re-analysis of the deposited data

How the results depend on the processing

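Across the 17 alternatives, 0 of the 4 neighbours passed in either comparison with control and 0 of the 6 members between the vectors. DLEC1, VILL and MIR26A1 are dim and drop out without genes below the 50th percentile. With the replicate block CTDSPL had limma adjusted p = 0.872, 0.912 and 0.824 for KL-FL, KL1 and the vectors against each other. The block changed no call among the members, while the DDIT3 call in each comparison with control was lost (0 genes passed), as in the other alternatives named above. The CTDSPL difference kept its sign throughout, from 0.00052 to 0.041 with KL-FL, -0.071 to -0.019 with KL1 and 0.042 to 0.094 between the vectors. VILL and MIR26A1 stood above control in every alternative that held them, at 0.16 to 0.19 and 0.28 to 0.38 with KL-FL and at 0.16 to 0.20 and 0.27 to 0.32 with KL1, and both stayed above every control on all 6 arrays (2 members) under quantile normalization and median centring. Signs turned for PLCD1 with KL-FL under array weights (-0.011) and, with arrays left out, over -0.032 to 0.065 for KL-FL and -0.10 to 0.016 for KL1. They turned for DLEC1 under quantile normalization (-0.014 and -0.011) and for CTDSP2 with KL1 under the same (0.0016). With arrays left out they turned for ACAA1 with KL1 (-0.090 to 0.030), CTDSP2 (-0.0086 to 0.0053 and -0.031 to 0.012), CTDSP1 with KL1 (-0.047 to 0.011) and APRG1 with KL1 (-0.14 to 0.030). Between the vectors they turned for MIR26A1 (-0.013 to 0.090), VILL (-0.016 to 0.0062) and DLEC1 (-0.0086 to 0.0068). Causes were not tested. The number of arrays and the missing detection calls limit the precision of the dim genes.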

Other observations

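The array numbered 2 read highest within its group in all 3 groups for 4 of the 6 members: MIR26A1, VILL, PLCD1 and ACAA1. Over all genes this held for 5.37%, and for the arrays numbered 1 and 3 it held for 2.75% and 1.63% of genes and for 0 of the 6 members. For ACAA1 the array numbered 2 read 5.68, 5.49 and 5.60 in control, KL-FL and KL1, and for PLCD1 5.52, 5.53 and 5.49. When replicate number entered as a block, the standard error of a difference was 0.043 in place of 0.066 for ACAA1 and 0.054 in place of 0.067 for PLCD1, and it was smaller for 4 of the 6 members and for 46.7% of all genes, while VILL went from 0.030 to 0.031. This count was chosen after the values were seen and was not tested.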
